A study of Melospiza melodia with 33 samples.

Results

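Whole blood of free-living song sparrows, Melospiza melodia, was examined for transcripts of genes that cells use to copy their DNA and to divide. A list of 34 such genes was taken, 23 that act in mitosis or its control and 11 that act in DNA replication, and each was looked up by its symbol among the 21141 gene rows of every library. All but BIRC5, a mitotic gene that is not analysed here, had a row, so 33 members were described, 22 mitotic and 11 replication genes. All 33 passed the filter on low counts.

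The birds were adult males living free at Linesville, Pennsylvania, and none was a captive or a bred strain. The data comprise 33 libraries from 25 birds. All were made from poly(A) RNA of whole blood without removal of hemoglobin transcripts. In 12 libraries the blood was taken after a simulated territorial intrusion with foreign song (stimuli 1, 4 and 5, recorded at Millbrook, New York), in 11 after one with local song (stimuli 2, 3 and 6, recorded at Linesville), and in 10 from baseline birds that met no intrusion. Of the birds played to, 8 have a library from a first and a second trial, with local song first in birds 8422, 8426, 8427 and 8430 and foreign song first in birds 8428, 8429, 8436 and 8439. Birds without a second library were not recaptured. Several birds heard the same recording, so differences between recordings and between song origins cannot be fully told apart. Libraries are named below by bird and trial, and a bird with 1 library by its number alone; birds 8435, 8438, 8442, 8443, 8444 and 8446 to 8450 were the baseline birds.

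As background, a cell that divides first copies its DNA in S phase. The MCM helicase opens the double helix, PCNA holds the polymerases on it as a sliding clamp, and ribonucleotide reductase and thymidylate synthase supply the building blocks. Mitosis follows: cyclins and their kinase CDK1 set it off, motors and kinetochore proteins move the chromosomes, and the checkpoint proteins hold separation back until each chromosome is attached. In healthy adult birds and mammals most blood cells are made in the marrow. Birds have nucleated red cells, and immature red cells and activated lymphocytes are among the circulating cells that can still divide or carry such transcripts. In whole blood, fewer cells of a type and less RNA per cell cannot be told apart.

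The libraries held 64.7 to 103.7 M counts each, with means of 85.6 ± 7.53 M for foreign song, 79.0 ± 7.14 M for local song and 84.6 ± 8.16 M for baseline (SD, n = 12, 11 and 10). Levels are given in CPM, counts per M of library size after scaling by the trimmed mean of M-values (TMM). The labelled tissue matched its red cell markers: 16 of 22 listed erythroid genes had a row and summed to between 9924 CPM, in bird 8450, and 23019 CPM, in the first library of bird 8422. Some libraries stood apart. The libraries labelled 8439 did not resemble each other (r = −0.05 across 12363 genes, against 0.325 to 0.629 for the other 7 birds), and the second of them had the largest scaling factor, 1.81. Many genes of all kinds were highest in that library, in bird 8448 or in bird 8450.

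Most of the mitotic genes were present at low levels, and which bird had most of them depended on the gene. MKI67 encodes Ki-67, which coats chromosomes in mitosis and is the usual marker of cells in cycle. It ran from 0.775 to 3.91 CPM after foreign song (median 1.26), from 0.481 to 2.47 CPM after local song (median 1.59) and from 0.604 to 4.31 CPM at baseline (median 1.41). The groups overlapped, and the 3 highest libraries lay above the highest local song library. The highest libraries were bird 8448 (4.31 CPM, 519 counts), the second of bird 8422 (3.91) and the second of bird 8430 (2.90). The lowest was the first library of bird 8430, at 0.481 CPM and 38 counts. TOP2A, the topoisomerase that untangles copied chromosomes, ran from 0.173 to 1.72 CPM after foreign song, from 0.314 to 1.14 CPM after local song and from 0.289 to 1.29 CPM at baseline. Its medians were 0.746, 0.724 and 0.464 CPM, and the same 3 libraries were highest: the second of bird 8422 (1.72), the second of bird 8430 (1.46) and bird 8448 (1.29).

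**Figure D1:**
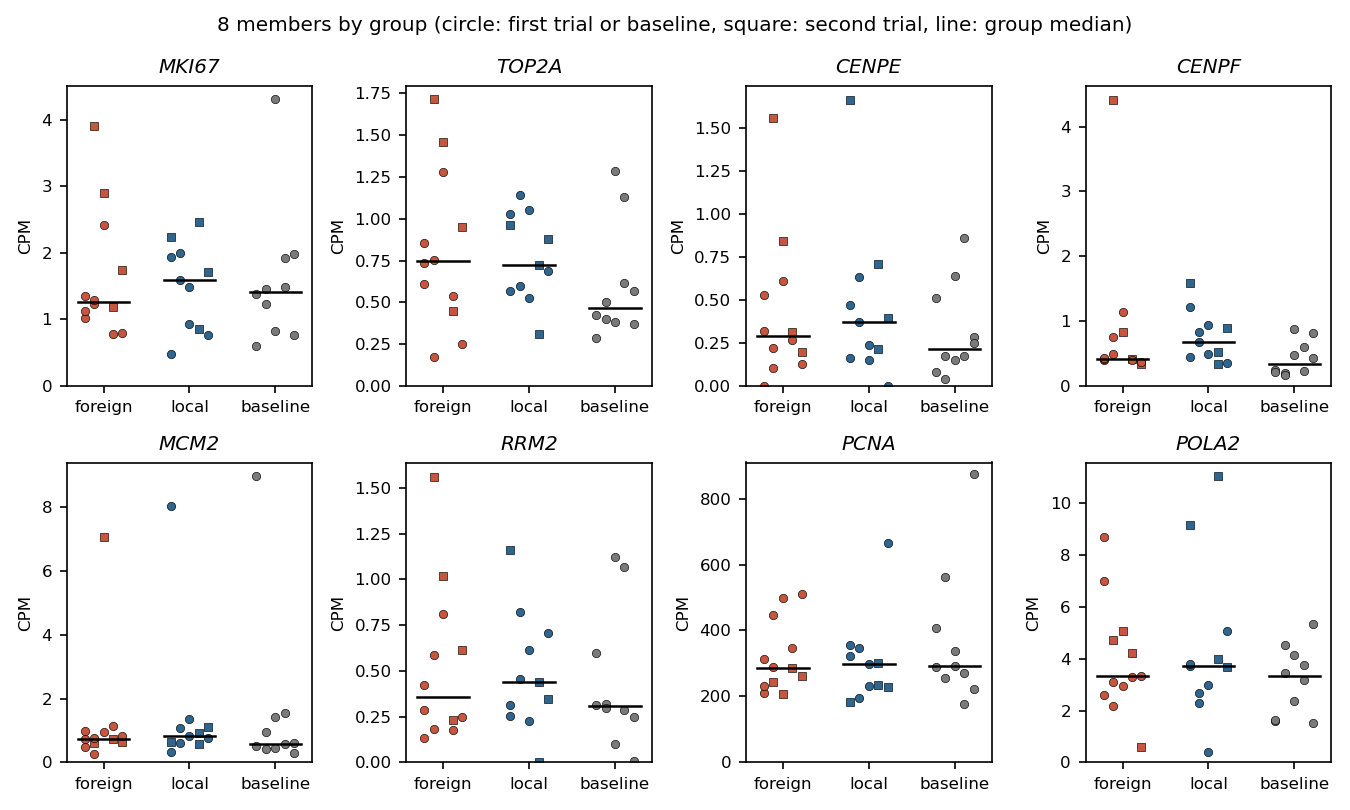
Level (CPM, linear axis from 0) of 8 members in each library, by group. Circles are first trials or baseline birds, squares are second trials, and lines are group medians; the groups overlap for every gene, and single birds such as 8446 and 8430 for MCM2 lie far above the rest.

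Kinases and cyclins that start mitosis come next. CDK1, the kinase of mitotic entry, had 0 counts in the second library of bird 8428 and a median of 0.302 CPM, and reached 0.669 CPM in bird 8449. CCNA2, the cyclin of S phase and G2, ran from 0.118 to 1.49 CPM (median 0.463) and was highest in the second library of bird 8422. The B-type cyclin CCNB2 ran from 0.596 to 2.97 CPM (median 1.54). The related CCNB3, known best from germ cells in mammals, ran from 0.131 to 2.08 CPM (median 0.534). PLK1, a kinase of spindle assembly, lay between 0.535 and 2.84 CPM (median 1.14). AURKA, the kinase of spindle poles, ran from 3.99 CPM in the second library of bird 8439 to 58.6 CPM in bird 8437 after local song, with a median of 16.1 CPM. Its activator TPX2 ran from 24.3 to 150 CPM (median 67.3). The library with the lowest AURKA was thus the one labelled 8439, second trial, while TPX2 was lowest in the first library of that label.

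The spindle motors and scaffolds spanned a wide range between birds. KIF11, which pushes the spindle poles apart, ran from 13.8 to 55.9 CPM (median 27.9), with the second library of bird 8426 highest. KIF20A and KIF23 are motors of cytokinesis. KIF20A ran from 0.0386 CPM in bird 8449 to 1.32 CPM in bird 8438 (median 0.758). KIF23 ran from 0.171 to 4.21 CPM (median 0.675), and the value in bird 8450 was far above the second highest, 1.67 CPM. PRC1, which bundles the microtubules of the midzone, ran from 1.16 to 9.95 CPM (median 3.29), also with bird 8450 highest. NUSAP1, a spindle-binding protein, ran from 0.145 to 3.06 CPM (median 0.965) and was highest in bird 8448. ASPM, a protein of spindle poles, ran from 0.304 to 2.81 CPM (median 0.88) and was highest in the second library of bird 8422.

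Kinetochore and checkpoint genes followed. CENPE, a kinetochore motor, varied most among mitotic members (SD of log2 CPM 1.61): it had 0 counts in the first library of bird 8428 and in bird 8437 after local song, and reached 1.66 CPM in the second library of bird 8439 and 1.56 CPM in the second of bird 8422. Its range was 0 to 1.56 CPM after foreign song (median 0.289), 0 to 1.66 CPM after local song (median 0.375) and 0.0397 to 0.862 CPM at baseline (median 0.214), so the groups overlapped. CENPF, another kinetochore protein, ran from 0.171 to 4.41 CPM (median 0.471), and the second library of bird 8422 stood at 4.41 CPM against 1.58 CPM in the next. NDC80, which ties kinetochores to microtubules, ran from 0.252 to 9.13 CPM (median 2.07), highest in bird 8433 after foreign song. The checkpoint kinase BUB1 ran from 0.0787 to 4.18 CPM (median 0.546), highest in the second library of bird 8428. Its relative BUB1B ran from 5.77 to 29.8 CPM (median 15.4). CDC20, which triggers chromosome separation once the checkpoint is satisfied, ran from 8.46 to 86.1 CPM (median 17.6), with the second library of bird 8439 and bird 8450 (60.5) well above the rest. ESPL1, the separase that cuts the cohesin ring, ran from 4.78 to 29.4 CPM (median 11.2).

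Replication genes ranged from at least 13655 counts in every library, for PCNA, to 0 counts in some, for MCM5, MCM6, RRM2 and TYMS. PCNA ran from 207 to 511 CPM after foreign song (median 288), from 185 to 667 CPM after local song (median 297) and from 176 to 874 CPM at baseline (median 292). Bird 8450 was highest, bird 8437 after local song was second, and the groups overlapped. Of the helicase subunits, MCM3 ran from 0.0125 to 0.927 CPM (median 0.224), MCM4 from 0.791 to 4.80 CPM (median 1.55), MCM5 from 0 to 1.08 CPM (median 0.215) and MCM6 from 0 to 2.06 CPM (median 0.798). MCM4, MCM5 and MCM6 were all highest in bird 8448, and MCM3 and CDK1 in bird 8449 with 8448 next. RRM1, the large subunit of ribonucleotide reductase, ran from 0.224 to 3.73 CPM (median 0.605), highest in bird 8433 after foreign song. The small subunit RRM2 varied most among replication members (SD of log2 CPM 1.48). It ran from 0.132 to 1.56 CPM after foreign song (median 0.355), from 0 to 1.16 CPM after local song (median 0.441) and from 0.00932 to 1.12 CPM at baseline (median 0.306). The second libraries of birds 8422 and 8439 and bird 8448 were highest, and the groups overlapped. TYMS, thymidylate synthase, ran from 0 to 0.912 CPM (median 0.25). UHRF1, which carries DNA methylation over to the new strand, ran from 1.2 to 6.62 CPM in 32 libraries and stood at 21.0 CPM in bird 8450. POLA2, the accessory subunit of the polymerase that lays the first primers, ran from 0.421 to 11.05 CPM (median 3.47).

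MCM2, another helicase subunit, had 3 libraries far above the rest. It stood at 8.04 CPM in the first and 7.06 CPM in the second library of bird 8430 and at 8.96 CPM in bird 8446. In the other 30 libraries it lay between 0.276 and 1.56 CPM. The high values did not follow the group: they came from local song, foreign song and baseline. Of the other helicase subunits, MCM4 was 1.89 and 2.06 CPM in the libraries of bird 8430 and 2.10 CPM in bird 8446, against a median of 1.55, and MCM6 was 0.683, 0.842 and 1.36 CPM, against a median of 0.798. In the same order MCM3 was 0.19, 0.334 and 0.328 CPM (median 0.224), and MCM5 was 0.114, 0.241 and 0.389 CPM (median 0.2155).

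The pattern across members was read library by library as the number of members above 2 times their median. Bird 8448 and the second library of bird 8439 had 13 of 33 each (39.4%), the second library of bird 8422 and bird 8450 had 9 each (27.3%), the second of bird 8430 and bird 8425, sampled after foreign song, had 8 each (24.2%), and bird 8449 and the second of bird 8428 had 7 each (21.2%). The share of all genes above 2 times their median in these libraries was 17.8%, 27.0%, 6.43%, 17.9%, 3.76%, 6.93%, 6.92% and 14.0% in the same order. Genes with few counts pass this mark more easily, so the 22 members with a median under 2 CPM were set beside the 5044 genes under that level. In bird 8448 this gave 59.1% of members against 31.9% of genes, in the second library of bird 8422 40.9% against 11.4%, in the second of bird 8430 36.4% against 6.9%, in bird 8425 36.4% against 13.2% and in bird 8449 31.8% against 12.9%. In the second library of bird 8439 the shares were 40.9% and 45%, in bird 8450 13.6% and 27.9%, and in the second of bird 8428 13.6% and 28.4%. In these last 3 libraries the share among low members was not above that among low genes. Members with a median of 2 CPM or more were not set beside genes of their own level. Low members were 9 of the 13 in the second library of bird 8439, 3 of the 9 in bird 8450 and 3 of the 7 in the second of bird 8428. The rest of these counts thus has no background matched by level. In bird 8448 low members were 13 of 13. By highest value, the second library of bird 8439 led in 6 members (14.2% of all genes). Bird 8448 and the second of bird 8422 led in 5 each (10.2% and 2.01%), bird 8450 in 4 (9.85%) and bird 8437 in 3 (6.59%). Without TMM scaling these libraries led in 12, 6, 3, 5 and 1 members in the same order. The shares of all genes without scaling are not given here.

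The high libraries differed in which genes they held. Bird 8448 had 7 of 11 replication members above 2 times the median (MCM3, MCM4, MCM5, MCM6, RRM1, RRM2 and TYMS) beside 6 of 22 mitotic ones (MKI67, TOP2A, CDK1, BUB1, CENPE and NUSAP1). Bird 8449 had 5 replication members (MCM2, MCM3, MCM4, MCM5 and RRM2) and 2 mitotic ones (CDK1 and CENPE). In the second library of bird 8422 the balance lay with 6 mitotic members (MKI67, TOP2A, CCNA2, CENPE, CENPF and ASPM) beside MCM3, RRM2 and TYMS. The second library of bird 8430 showed MKI67, TOP2A, CCNA2, CENPE and NUSAP1 with MCM2, RRM2 and TYMS, and bird 8425 showed TOP2A, CCNA2, CENPE, CENPF, NUSAP1 and ASPM with MCM3 and RRM2. Bird 8450 held another set (CCNB3, BUB1, KIF23, TPX2, CDC20, PRC1, ESPL1, PCNA and UHRF1), with MKI67 at 0.764 CPM, CDK1 at 0.0653 CPM and MCM5 at 0 counts. The second library of bird 8428 shared part of that set (CCNB3, BUB1, PRC1, ESPL1 and UHRF1) beside MCM5 and POLA2. Bird 8435 had no member above 2 times its median (5.95% of all genes), as did other libraries such as that of bird 8447. Bird 8435 had 9 members below 0.5 of their median. Bird 8446, the first libraries of birds 8428 and 8439 and the second of bird 8436 had 8 each. The share of all genes below that mark is not given here.

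**Figure D2:**
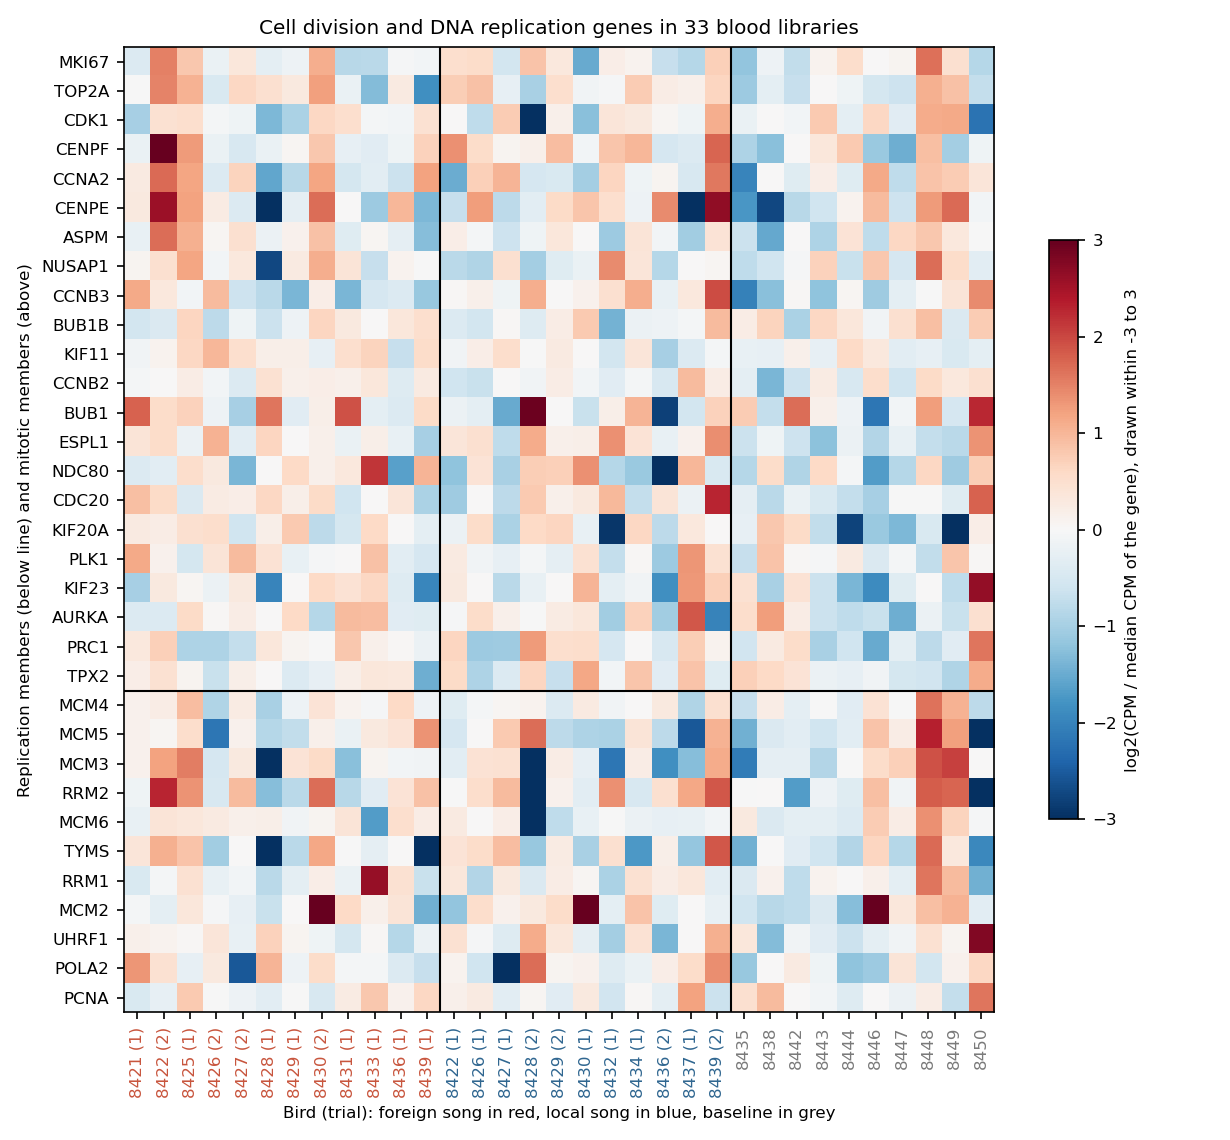
Colour shows log2 of CPM over the gene's median for 33 members (rows, ordered within each class by their correlation with MKI67) in 33 libraries (columns, by group, with bird and trial). Bird 8448 is above 2 times the median in 7 of 11 replication rows, bird 8450 is red in the lower mitotic rows and blue for CDK1, MCM5 and RRM2, and no group is of 1 colour.

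Blood cell markers differed between these birds. By mean log2 CPM, bird 8448 ranked first of 33 libraries for the T cell, B cell and plasma cell lists, 2nd for the stem and progenitor and thrombocyte lists and 31st for the erythroid list. The T cell list (16 of 20 genes with a row, none at 0 in all libraries of a group; CD3D, CD3E, ZAP70 and LAT not analysed here) summed to 268 CPM in bird 8448, where baseline libraries ran from 62.2 to 268 CPM, foreign song libraries from 50.4 to 142 CPM and local song libraries from 54.7 to 216 CPM. The second library of bird 8422 showed no such marker level: it ranked 21st for T cell, 30th for B cell and 30th for stem and progenitor markers, and 5th for erythroid ones. The second library of bird 8430 ranked 32nd for T cell, 32nd for B cell and 3rd for erythroid markers. Bird 8425 ranked 3rd for stem and progenitor and 2nd for plasma cell markers, and bird 8449 first for heterophil and 5th for T cell markers. The second library of bird 8439 ranked first for stem and progenitor and thrombocyte markers, 2nd for T cell and monocyte, 3rd for B cell and heterophil and 32nd for erythroid ones, and bird 8450 was last for erythroid and 4th for thrombocyte markers. The part of cell makeup in the members' levels was not tested.

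Over the 25 birds, with 1 library each (first trial or baseline), MKI67 was compared with 8 marker lists and so was MCM2, 16 relations in all with p-values adjusted over them. MKI67 correlated with the mean log2 CPM of the T cell list (Pearson r = 0.65, permutation p = 0.00044, adjusted 0.00704; Spearman rho = 0.48, permutation p = 0.016, adjusted 0.0798). Without birds 8437 and 8448, the farthest from the list's median, r was 0.434. MKI67 also correlated with the stem and progenitor list, 9 genes such as KIT, MYB and GATA2 (r = 0.54, permutation p = 0.00559, adjusted 0.0447; rho = 0.675, permutation p = 0.00029, adjusted 0.00464), with r = 0.718 without birds 8438 and 8439. With the erythroid list r was 0.05 (permutation p = 0.794, adjusted 0.847; rho = 0.06, permutation p = 0.772, adjusted 0.824). Without bird 8448, r of MKI67 was 0.48 with the T cell list and 0.47 with the stem and progenitor list. Of the 16 Pearson relations 0 passed without that bird (adjusted permutation p = 0.157 for both lists). The rank correlation with the stem and progenitor list still passed then (adjusted permutation p = 0.0187). MCM2 fell into 2 clusters, so its relations were read within the 23 birds under 4 CPM, where 0 of 8 Pearson relations passed (r = 0.54 with the stem and progenitor list, the largest; permutation p = 0.0087, adjusted 0.051; rho = 0.553, permutation p = 0.00713, adjusted 0.0334). By rank the heterophil list passed as well (r = 0.50, permutation p = 0.0157, adjusted 0.051; rho = 0.546, permutation p = 0.00836, adjusted 0.0334). The monocyte list lay close to these (r = 0.49, adjusted permutation p = 0.051, and rho = 0.486, adjusted permutation p = 0.0524). Without the 2 birds farthest from the list's median, r was 0.356 for the stem and progenitor list and 0.511 for the heterophil list. Over all 25 birds no MCM2 relation passed. There rho was 0.464 for the stem and progenitor list (adjusted permutation p = 0.0798) and 0.435 for the heterophil list (adjusted permutation p = 0.0986).

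The other members did not follow MKI67 as a block. Of 32 members, 6 correlated with it over the 25 birds at an adjusted p under 0.05 by Pearson's r, and the signs were mixed. TOP2A (r = 0.60, permutation p = 0.0014, adjusted 0.0348; rho = 0.623, permutation p = 0.00131, adjusted 0.0262), MCM4 (r = 0.58; adjusted permutation p 0.0348), MCM5 (r = 0.56; 0.0348) and MCM3 (r = 0.53; 0.0418) rose with MKI67. TPX2 (r = −0.56, permutation p = 0.00399, adjusted 0.0348; rho = −0.592, permutation p = 0.00234, adjusted 0.0262) and PRC1 (r = −0.52; adjusted permutation p 0.0418) fell as MKI67 rose. The rho of MCM4, MCM5 and MCM3 was 0.327, 0.479 and 0.462, with adjusted permutation p of 0.196, 0.077 and 0.083. By rank 5 members passed: TOP2A, TPX2, PRC1 (rho = −0.589; adjusted permutation p 0.0262), CENPF (rho = 0.549; 0.0326) and CENPE (rho = 0.547; 0.0326), the last pair with r of 0.47 and 0.41 and adjusted permutation p of 0.0567 and 0.1 for them. Without birds 8430 and 8448, r was 0.606 for TOP2A, 0.523 for MCM4, 0.45 for MCM5, 0.467 for MCM3, −0.465 for TPX2 and −0.482 for PRC1. Without bird 8448 alone, 0 of the 32 passed by r or by rank; the strongest were then TPX2 (r = −0.55) and TOP2A (r = 0.54), each with an adjusted permutation p of 0.101. PCNA, although used as a proliferation marker in tissues, had r = −0.30 (permutation p = 0.149, adjusted 0.25; rho = −0.351, permutation p = 0.0854, adjusted 0.161).

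**Figure D3:**
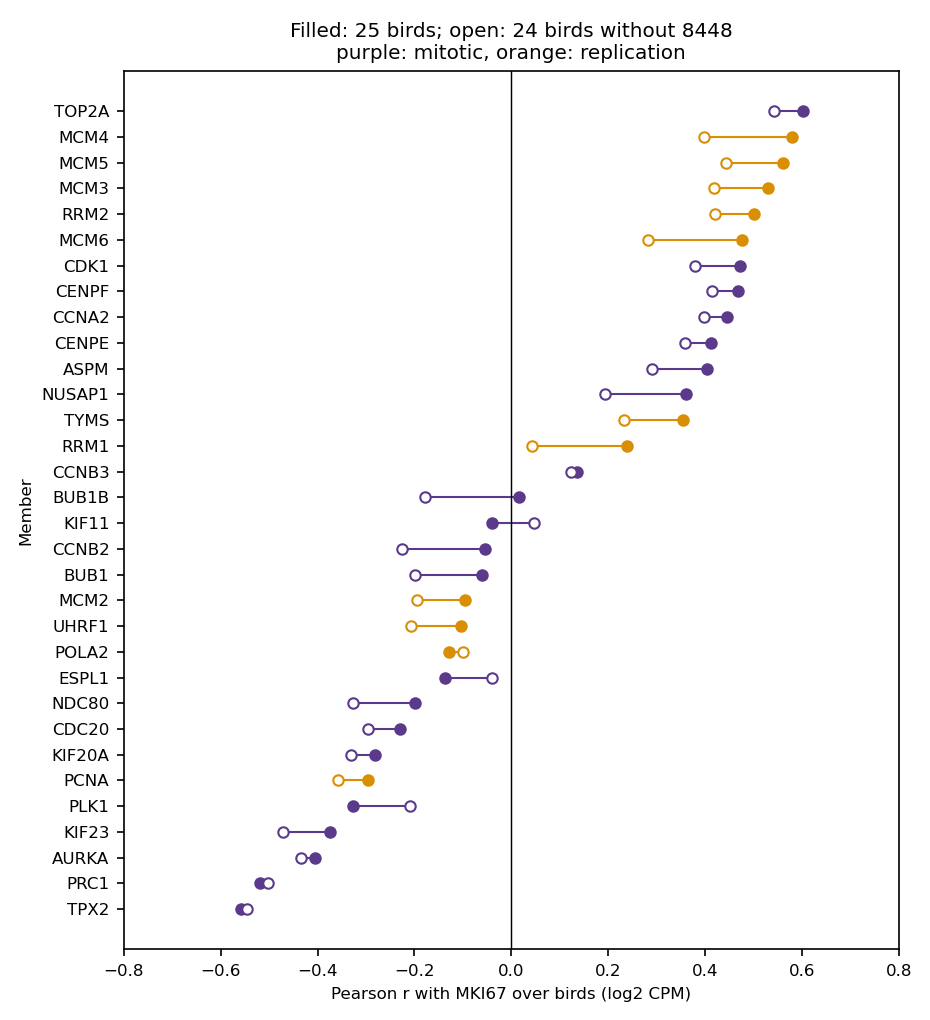
Pearson r of log2 CPM with MKI67 over birds for 32 members (x axis, −0.8 to 0.8), with filled circles for 25 birds and open circles for 24 birds without 8448. With 25 birds TOP2A, MCM4, MCM5 and MCM3 lie at the positive end. Without 8448 TOP2A is still highest (0.54), but MCM4 (0.398) lies below RRM2 (0.421) and CENPF (0.415). PRC1 and TPX2 lie at the negative end in both.

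Mitotic and replication members were also set against each other as pairs. The median r over the 25 birds was 0.07 for 231 pairs of mitotic members (−0.67 to 0.67), 0.21 for 55 pairs of replication members (−0.58 to 0.75) and 0.05 for 242 mixed pairs (−0.66 to 0.74). The highest pairs were MCM3 with MCM4 (0.751), MCM4 with MCM5 (0.738) and CDK1 with RRM2 (0.738), and the lowest was CDC20 with CDK1 (−0.665). These r share the scaling of the libraries and are descriptions. A search over all 33 members and all 8 marker lists (264 relations) found 4 at an adjusted permutation p under 0.05 by Pearson's r and 7 by Spearman's rho. The 4 were positive: MCM4 with T cell (r = 0.66; rho = 0.553) and plasma cell markers (r = 0.64; rho = 0.715), MKI67 with T cell markers (r = 0.65), and TOP2A with stem and progenitor markers (r = 0.66; rho = 0.642). Their adjusted permutation p were 0.0387, 0.0396, 0.0387 and 0.0387 by r. By rank, MCM4 and MKI67 with T cell markers did not pass (adjusted permutation p 0.0871 and 0.187). MCM4 with plasma cell and TOP2A with stem and progenitor markers did, as did MCM5 (rho = 0.751; 0.00792) and MCM3 (rho = 0.626; 0.0479) with T cell markers, RRM1 with plasma cell markers (rho = 0.645; 0.0317), and CENPE (rho = 0.665; 0.0264) and MKI67 (rho = 0.675; 0.0255) with stem and progenitor markers. MCM4 had r = 0.392 with T cell markers without birds 8437 and 8448 and 0.598 with plasma cell markers without birds 8432 and 8448, and TOP2A had r = 0.611 without birds 8438 and 8439.

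Genes outside the list whose level was most like that of the members were taken by Pearson's r of log2 CPM over the 25 birds, as a description. For the mean of the mitotic members these were POLE2 (r = 0.76), the second subunit of DNA polymerase epsilon, then KIF13A, MYO1C, RASSF1, AUTS2, SKI, DGAT1, ITPR2, TRIM3, XPO4, FBRSL1, LOC134431183, NEFH, MADD and LOC134426367 (r = 0.66 for the last). For the mean of the replication members they included RPUSD1 (r = 0.86), LOC134430546, LOC134430579, LOC134425813, RFC3 (0.80), a subunit of the loader that puts PCNA on DNA, THYN1, MRAS, TACC1, LOC134422310, DOCK2, KLHL6, LOC134414097, LOC134416193 and GPR183 (0.76 for the last). The genes named for the replication group were all highest in bird 8448 over the 33 libraries, and 14 of the mitotic group in the second library of bird 8439 or in bird 8450, with AUTS2 highest in the second library of bird 8428.

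Whether a bird kept its level was asked in the 8 birds with 2 libraries. The share of variation that lay between birds, as a one-way intraclass correlation of log2 CPM, had a median of 0.298 over mitotic members, 0.429 over replication members and 0.33 over all 12363 genes. It was above 0.5 in 12 of 33 members (36.4%) and in 34.2% of all genes, a share near the background with all 8 birds. The highest were MCM2 (0.848), BUB1B (0.841), PRC1 (0.773), POLA2 (0.745) and KIF20A (0.724), followed by MCM3, NDC80, BUB1, KIF11, UHRF1, CENPF and RRM1. The lowest were PCNA (−0.775), CDC20 (−0.518), CCNB3 (−0.471), MKI67 (−0.348) and TOP2A (−0.226). Without the libraries labelled 8439, the median of all genes was 0.532 and that of the members 0.342, a description with no test. The share above 0.5 was then 39.4% of members against 53.5% of all genes, so the members lay below all genes. That background was not matched by level, and 22 of the 33 members had a median under 2 CPM. The difference thus cannot be told apart from one of level. PCNA was −0.576, MKI67 −0.326, TOP2A −0.188, CCNB3 −0.125 and CDC20 −0.0122 then, and ESPL1 went from 0.0492 to 0.799.

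The values behind this were plain in the pairs. MKI67 went from 1.94 to 3.91 CPM between trials in bird 8422, from 2.00 to 1.19 in 8426, from 0.932 to 1.74 in 8427, from 1.12 to 2.47 in 8428, from 1.23 to 1.71 in 8429, from 0.481 to 2.90 in 8430, from 1.35 to 0.85 in 8436 and from 1.30 to 2.24 in 8439. It was higher in the second library of 6 of 8 birds. No relation between first and second values was detectable (r = −0.23, exact permutation p = 0.586, adjusted over 4 genes 0.586; rho = −0.333, exact permutation p = 0.428, adjusted 0.501), and r changed sign, to 0.42, without birds 8426 and 8430. TOP2A went from 1.03 to 1.72 CPM in bird 8422, 1.14 to 0.446 in 8426, 0.523 to 0.949 in 8427, 0.857 to 0.314 in 8428, 0.753 to 0.881 in 8429, 0.569 to 1.46 in 8430, 0.738 to 0.724 in 8436 and 0.173 to 0.96 in 8439. It was higher in the second library of 5 birds (r = −0.25, exact permutation p = 0.542, adjusted 0.586; rho = −0.357, exact permutation p = 0.389, adjusted 0.501; r = −0.11 without birds 8426 and 8439).

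PCNA was lower at the second trial in 6 of the 8 birds on its CPM values: 323 to 243 in bird 8422, 348 to 286 in 8426, 289 to 230 in 8429, 355 to 207 in 8430, 314 to 236 in 8436 and 448 to 185 in 8439, against 232 to 262 in 8427 and 231 to 302 in 8428. Its first and second values ran in opposite order (r = −0.74, exact permutation p = 0.0343, adjusted 0.103; rho = −0.667, exact permutation p = 0.0831, adjusted 0.332), and r was −0.24 without birds 8428 and 8439. For MCM2 the pairs were 0.329 and 0.613 CPM in bird 8422, 1.09 and 0.735 in 8426, 0.83 and 0.636 in 8427, 0.475 and 0.928 in 8428, 0.753 and 1.10 in 8429, 8.04 and 7.06 in 8430, 0.98 and 0.583 in 8436 and 0.276 and 0.646 in 8439. The bird-to-bird share of MCM2 rests on bird 8430: r was −0.04 without it and bird 8439, and no pooled r is given. None of the 4 genes passed after adjustment.

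The first question of the design was whether foreign song differed from local song within the 8 birds. No member differed beyond the spread of the differences within birds. Of 33 members 0 passed in edgeR's quasi-likelihood test, as did 0% of the 11629 genes tested. An unadjusted p under 0.05 in edgeR was found for 0 members (4.18% of all genes). DESeq2 called 0 members (0.0344% of all genes) and had 2 under an unadjusted 0.05. Of mitotic members 14 of 22 had positive log2 fold changes (median 0.09), of replication members 4 of 11 (median −0.13), and of all genes 49.1% (median −0.01). CCNB3 had 0.478 ± 0.28 CPM after foreign and 0.803 ± 0.561 CPM after local song (SD, n = 8; edgeR log2 fold change −0.73 ± 0.36 SE, adjusted p = 0.775, higher after foreign song in 3 of 8 birds). KIF11 had 33.8 ± 11.8 and 28.5 ± 7.48 CPM (0.22 ± 0.14). MCM6 was higher after foreign song in 7 of 8 birds (0.928 ± 0.119 and 0.659 ± 0.307 CPM; 0.76 ± 0.51), but the second library of bird 8428, after local song, held 0 counts of it, and the log2 fold change was 0.37 without that bird. TYMS had 0.231 ± 0.215 and 0.363 ± 0.252 CPM (−1.14 ± 0.76), and −0.60 without bird 8439. The adjusted p of these was 0.775 in edgeR.

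Second trials were compared with first trials in the same fit, which separates the trial from the song but not from anything else that changed between captures. Most members had a higher fitted level at the second trial, none past the test: 19 of 22 mitotic members (median log2 fold change 0.33) and 8 of 11 replication members (median 0.16) had positive values, against 54.9% of all genes (median 0.04). No single member passed in edgeR (0 of 33, against 0% of 11629 genes; lowest adjusted p 0.633). At an unadjusted p under 0.05 in edgeR there were 7 members (21.2%, against 5.73% of all genes). Members were chosen with earlier results of these data known, so this share is a description. DESeq2 called 0 (0.0516% of all genes) and had 9 under an unadjusted 0.05. The share of all genes under an unadjusted 0.05 in DESeq2 is not given, here or for the other comparisons. Those DESeq2 counts of members thus have no background to be read against. Of the 7, 6 had positive values: POLA2, ASPM, CCNB3, CDC20, CENPE and ESPL1. AURKA had a negative one.

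POLA2 was followed in full because it was named in an earlier description of these data, so its values here are no independent support. It was higher in the second library of 8 of 8 birds. It went from 3.73 to 4.73 CPM in bird 8422, from 2.29 to 4.22 in 8426, from 0.421 to 0.599 in 8427, from 7.02 to 11.05 in 8428, from 3.10 to 3.70 in 8429, from 3.81 to 5.07 in 8430, from 2.59 to 3.98 in 8436 and from 2.16 to 9.17 in 8439. Bird 8427 was lowest and bird 8428 highest at both trials, and the groups overlapped. The log2 fold change was 0.72 ± 0.21 (SE, edgeR p = 0.00503, adjusted 0.633), and 0.52 without the libraries labelled 8439, which moved most. ASPM was higher in 8 of 8 birds as well (0.768 ± 0.212 and 1.31 ± 0.659 CPM; 0.72 ± 0.27, edgeR p = 0.0223, adjusted 0.633), and its edgeR p was 0.0795 without bird 8422 and 0.0517 without bird 8427. AURKA was lower at the second trial in 7 of 8 birds (17.8 ± 4.50 and 12.9 ± 5.53 CPM; −0.57 ± 0.20, edgeR p = 0.0125, adjusted 0.633). PCNA averaged 318 ± 70.9 and 244 ± 38.95 CPM (−0.35 ± 0.18, edgeR p = 0.0757, adjusted 0.633), lower in 6 of 8 birds, and −0.22 without 8439. CENPE went from 0.284 ± 0.228 to 0.737 ± 0.586 CPM and was higher in 7 of 8 birds (1.48 ± 0.63, edgeR p = 0.0366, adjusted 0.633). CENPE by bird went from 0.165 to 1.56 CPM in 8422, 0.634 to 0.313 in 8426, 0.153 to 0.2 in 8427, 0 to 0.213 in 8428, 0.221 to 0.397 in 8429, 0.468 to 0.842 in 8430, 0.527 to 0.708 in 8436 and 0.104 to 1.66 in 8439. RRM2 went from 0.316 to 1.56 CPM in bird 8422, 0.456 to 0.229 in 8426, 0.613 to 0.611 in 8427, 0.132 to 0 in 8428, 0.182 to 0.347 in 8429, 0.253 to 1.02 in 8430, 0.422 to 0.441 in 8436 and 0.588 to 1.16 in 8439 (0.44 ± 0.59, edgeR adjusted p = 0.773).

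**Figure D4:**
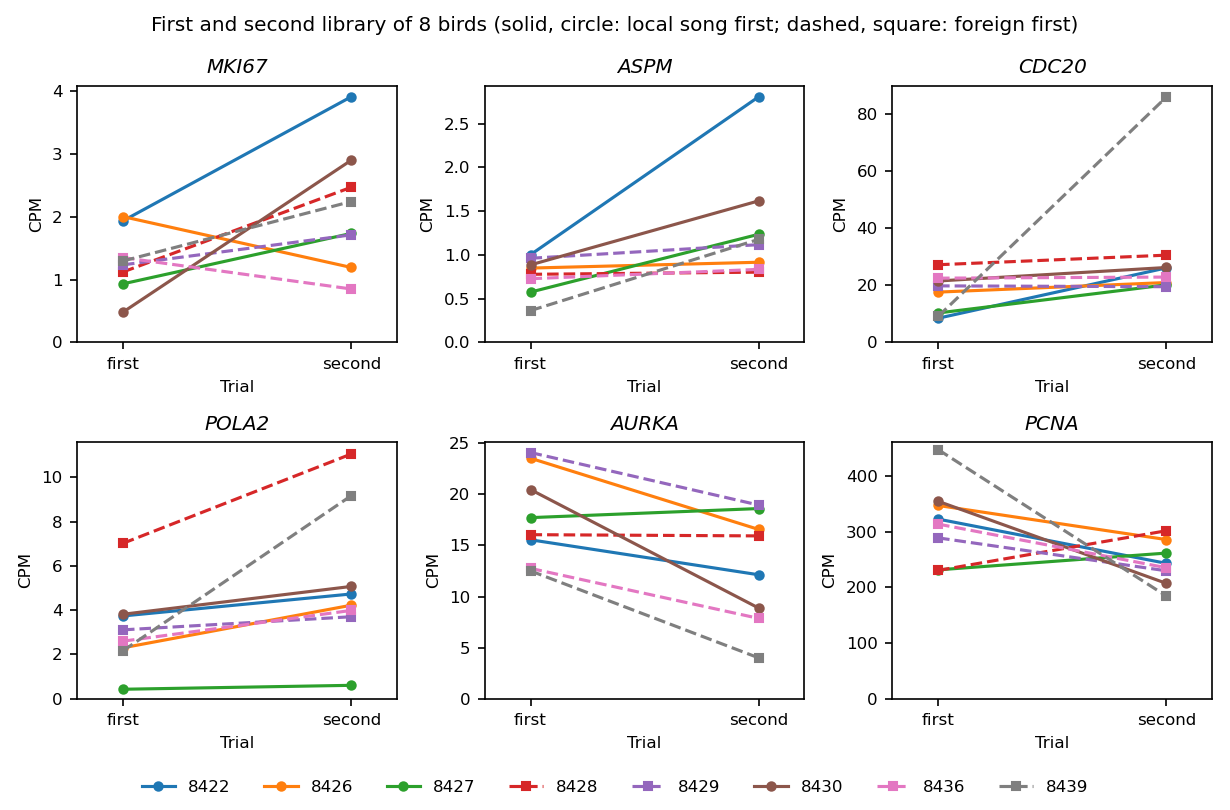
Level (CPM, axes from 0) of 6 members in the first and second library of 8 birds, 1 colour per bird, solid with circles where local song came first and dashed with squares where foreign song did. POLA2 and ASPM are higher at the second trial in all 8 birds, AURKA is lower in 7, and bird 8439 makes the steepest steps for CDC20 and POLA2.

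Birds differed in the size and direction of the change. Of 22 mitotic members, 18 were higher in the second library of birds 8422 and 8439, 16 in 8428 and 8429, 13 in 8427, 12 in 8426 and 8430, and 7 in 8436. The median log2 change of the mitotic members was 0.51 in bird 8422 and 0.70 in bird 8439, where all genes had 0.02 and 0.28, and −0.44 in bird 8436, where all genes had −0.01. Without the libraries labelled 8439, whose identity is in doubt, 16 of 22 mitotic and 8 of 11 replication members were positive. Their medians were 0.13 and 0.09, where 5905 of 11632 genes were positive with a median of 0.0035. An edgeR p under 0.05 was then found for 4 members (ASPM, CDC20, AURKA and POLA2). That was 13.6% of mitotic and 9.09% of replication members, against 4.43% of all genes. With the other birds left out in turn the mitotic median stayed between 0.19, without bird 8428, and 0.49, without bird 8436.

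**Figure D5:**
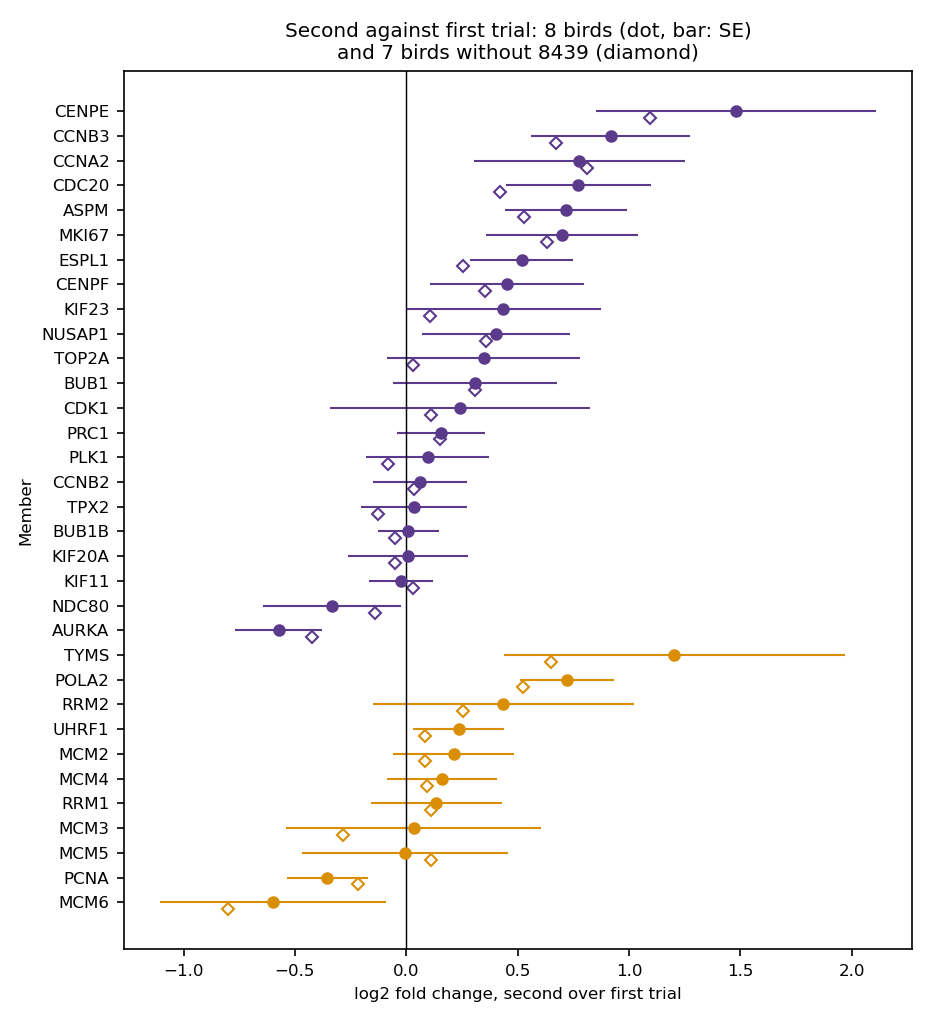
Log2 fold change of second over first trial (x axis) for 33 members, mitotic in purple and replication in orange, as dots with SE bars over 8 birds and as open diamonds over 7 birds without 8439. Of the dots, 27 lie above 0, and most diamonds lie nearer to 0.

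Within bird 8428 members went apart. MCM6 had 68 counts (0.897 CPM) in its first library and 0 in its second, a level at least 23.9-fold lower against a floor of 3 counts in that library (0.0376 CPM). CDK1 went from 9 counts to 0 and RRM2 from 10 to 0, while MCM5 went from 0.119 to 0.69 CPM and MKI67 from 1.12 to 2.47 CPM. MCM3 was at 0.0264 and 0.0125 CPM in the libraries of this bird, the lowest of the 33 at the second trial.

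Each song was then compared with baseline, which asks whether an intrusion of either kind went with a difference; the comparisons share the 10 baseline libraries. After foreign song 0 of 33 members passed in edgeR (0% of 11817 genes), with 2 at an unadjusted p under 0.05 (7.13% of all genes), and DESeq2 called 0 (0.00846% of all genes) and had 1. KIF11 was above the baseline median in 11 of 12 libraries (35.3 ± 10.7 CPM, n = 12, against 26.6 ± 6.88 CPM, n = 10, SD; log2 fold change 0.39 ± 0.17, edgeR p = 0.0303, adjusted 0.687). CENPF had a median of 0.421 CPM against 0.339 CPM at baseline (0.99 ± 0.46, edgeR p = 0.0421, adjusted 0.687), and the log2 fold change was 0.32 without the second library of bird 8422. UHRF1 (−0.63 ± 0.37) and PCNA (−0.24 ± 0.24) had negative log2 fold changes, with edgeR adjusted p of 0.724 and 0.829. Without baseline bird 8450 these log2 fold changes were 0.13 and 0.02, and neither passed (edgeR adjusted p of 0.84 and 0.979).

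After local song 0 of 33 members passed, while 0.00847% of 11800 genes did in edgeR, and 2 members had an unadjusted p under 0.05 (5.95% of all genes); DESeq2 called 0 (0.153% of all genes) and had 2. ESPL1 was above the baseline median in 10 of 11 libraries (16.4 ± 7.66 CPM, n = 11, against 9.65 ± 6.77 CPM, n = 10; 0.76 ± 0.30, edgeR p = 0.0187, adjusted 0.778). Its baseline values ran from 4.78 to 10.2 CPM in 9 birds and stood at 28.2 CPM in bird 8450. Without that bird, left out after its values were seen, the log2 fold change was 1.12 ± 0.25 (edgeR p = 0.00012, adjusted 0.195). The share of all genes with an unadjusted edgeR p under 0.05 then rose as well, to 12.2%. CENPF had 0.755 ± 0.39 CPM against 0.426 ± 0.262 CPM (0.82 ± 0.37, edgeR p = 0.0351, adjusted 0.806). Without the libraries labelled 8439, ESPL1 had 0.63 ± 0.30 (edgeR p = 0.0471, adjusted 0.727) and CENPF 0.64 ± 0.36 (edgeR p = 0.0844, adjusted 0.771). MCM3 (−0.78 ± 0.52, edgeR adjusted p = 0.888) and MCM6 (−0.55 ± 0.41, 0.909) had negative values, −0.52 and −0.37 without bird 8448.

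First and second trials were set against baseline in turn. For first trials 0 of 33 members passed in edgeR (0.00834% of 11992 genes), 0 had an unadjusted p under 0.05 (6% of all genes), and DESeq2 called 0 (0.0417% of all genes) and had 0. CENPF was above the baseline median in 15 of 15 first libraries (0.52 ± 0.32, edgeR p = 0.113, adjusted 0.855), BUB1B in 3 of 15 (−0.37 ± 0.22, p = 0.0954), UHRF1 in 9 of 15 (−0.67 ± 0.34, p = 0.06; 0.11 without bird 8450) and MCM3 in 7 of 15 (−0.67 ± 0.44, p = 0.138; −0.38 without bird 8448), all with an edgeR adjusted p of 0.854 or 0.855. For second trials 0 of 33 passed in edgeR (0.0168% of 11915 genes), with 4 at an unadjusted p under 0.05 (8.33% of all genes). These were CENPF (1.41 ± 0.50, edgeR adjusted p = 0.499; 0.67 without the second library of bird 8422), PCNA (−0.63 ± 0.26, adjusted 0.565), ESPL1 (0.77 ± 0.32, adjusted 0.565) and CENPE (1.17 ± 0.54, adjusted 0.595). ESPL1 was above the baseline median in 8 of 8 second libraries, and without bird 8450 its log2 fold change was 1.17 ± 0.24 (edgeR adjusted p = 0.0588). Without that bird 14.7% of all genes had an unadjusted edgeR p under 0.05. Without the libraries labelled 8439, ESPL1 had 0.66 ± 0.32 (edgeR p = 0.0559, adjusted 0.578) and CENPE 0.93 ± 0.55 (edgeR p = 0.107, adjusted 0.645). Neither was then under an unadjusted 0.05, while CENPF (edgeR p = 0.0175) and PCNA (edgeR p = 0.0486) still were. PCNA was below the baseline median in 7 of 8, and had −0.35 without bird 8450. POLA2 had 0.71 ± 0.38 (adjusted 0.633), above the baseline median in 7 of 8.

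DESeq2 called 1 member in that comparison, CDC20 (1.12 ± 0.26, DESeq2 adjusted p = 0.0138, where 0.319% of all genes passed), and had 5 members under an unadjusted 0.05. In edgeR CDC20 had 31.6 ± 22.3 CPM in 8 second libraries and 18.2 ± 15.2 CPM in 10 baseline libraries (0.73 ± 0.36, p = 0.0562, adjusted 0.61). The highest value, 86.1 CPM, came from the second library labelled 8439, whose identity is in doubt. Without the libraries of that label the log2 fold change was 0.38 ± 0.32 (edgeR p = 0.247, adjusted 0.7575). The DESeq2 value without them is not given here. Second libraries of CDC20 ran from 19.5 to 86.1 CPM and all 8 lay above the baseline median, with baseline at 8.83 to 17.5 CPM in 9 birds and 60.5 CPM in bird 8450. The groups thus overlapped through bird 8450, whose library was highest of the 33 in 9.85% of all genes. The share of all genes that overlap through that bird alone is not given here.

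Replication members had mostly negative log2 fold changes against baseline: 8 of 11 for foreign song (median −0.23), 8 of 11 for local song (−0.27), 9 of 11 for first trials (−0.30) and 8 of 11 for second trials (−0.23), where all genes had medians of −0.05, −0.00, −0.05 and −0.03. Bird 8448 carried much of this. Without it the medians were 0.05, −0.07, −0.04 and −0.01, and 5 or 6 of 11 were negative. Mitotic members were mixed, with 15, 14, 12 and 14 of 22 positive and medians of 0.14, 0.08, 0.04 and 0.20. Without bird 8450 they had 17, 17, 15 and 17 of 22 positive and medians of 0.33, 0.29, 0.21 and 0.48, where all genes had −0.02, 0.02, 0.00 and 0.01. Without the second library of bird 8422 foreign song gave 12 of 22 and 0.06, and second trials 15 of 22 and 0.16.

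Other genes of the cell cycle were counted from 4 further lists, with 0 called in edgeR in each of the 6 comparisons. In second against first trials 30 of 42 other mitosis genes and 25 of 46 other replication genes had positive log2 fold changes (medians 0.17 and 0.05). So did 8 of 12 genes of G1 and cell cycle entry (0.13), 9 of 21 cell cycle brakes (−0.02) and 54.9% of all genes (0.04). After foreign song against baseline 33 of 48 other replication genes were negative (median −0.27), and 30 of 46 were after local song (−0.11).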

How the data were processed

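Whole-blood RNA was enriched for poly(A) transcripts and sequenced as paired ends, per the labels' protocols. The submitters' processing notes name fastp and STAR. The sources used here give no versions, genome build or annotation, nor how reads were assigned to genes and whether by strand, so overlapping and antisense genes and near-identical copies are uncertain. Each deposited file gives the raw counts of 1 library, not normalized by the authors. All libraries carry the same batch label, and 2 of them list 2 lanes in place of 3.

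Members and lists were chosen with earlier results of these data known. All 33 symbols of members were found in the RefSeq gene table. The tests were run with edgeR 4.0.16 under R 4.3.3 (filterByExpr, minimum count 10 and minimum total 15, TMM, robust quasi-likelihood test, Benjamini-Hochberg adjustment over all genes tested, threshold 0.05). The 8 paired birds were fitted with the bird as a block, trial and song as terms; each comparison with baseline was fitted on its 2 groups. The pairing comes from the bird numbers in the labels: the 2 libraries of a bird deviated together with r of 0.325 to 0.629 in 7 birds and −0.05 in bird 8439. An SE was taken from the size of the log2 fold change and its F statistic, and so restates the test. P-values of the song and trial tests measure the spread of the differences within the 8 paired birds. Those of the comparisons with baseline measure the spread between birds. CPM values and group means use 1 scaling over all 33 libraries (12363 genes kept), and log2 CPM has a prior count of 1; a prior count of 5 was tried.

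Correlations used 1 library per bird, with a two-sided permutation test of 100000 resamples, or an exact permutation test over all pairings for 8 birds. Members with the largest spread, those with the smallest p in each comparison (2 mitotic and 2 replication) and MKI67, TOP2A, PCNA, MCM2 and POLA2 are described in full; CDC20, CENPE, ESPL1 and others outside that rule were chosen after their values were seen, as were the single libraries compared. Alternatives were DESeq2 1.42.0, relative log expression scaling, no filter on low counts, and leaving out libraries. The fits were tested on simulated data. Intervals of counting error are not given; a count of 0 is set against a floor of 3 counts per library, which covers counting error only. Levels of different genes are not compared, since transcript lengths were not used. Sequences of the members are not used here. 1 gene among those most like the replication members is not reported here.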

Additional observations from a re-analysis of the deposited data

Results flagged for a closer look

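Each of 66 sets of values was searched for a bird that lay far from the others on the log2 scale. The sets were the 10 baseline levels and the 8 changes from first to second library of every member. Chance gives about 1 such set in 20, and 10 values stood apart. The sets share libraries and are not independent, and the share of all genes flagged by this rule is not given here. The count thus cannot be read as particular to the members. In the baseline group bird 8450 was responsible for 5 of the 6: CDK1 at 0.0653 CPM was lower than in the other 9 birds (0.24 to 0.669 CPM), and KIF23 at 4.21 CPM (others 0.182 to 0.932), CDC20 at 60.5 CPM (8.83 to 17.5), ESPL1 at 28.2 CPM (4.78 to 10.2) and UHRF1 at 21.0 CPM (1.25 to 4.22) were higher. Bird 8446 stood apart for MCM2, at 8.96 CPM against 0.309 to 1.56 CPM. Among the changes, BUB1 fell by 2.22 on the log2 scale in bird 8436 (others 0.13 to 1.32), MCM6 fell by 6.26 in bird 8428 (others −0.73 to 0.30, a fitted value that depends on the prior count since the second count was 0), ESPL1 rose by 2.39 in bird 8439 (others −0.03 to 0.58) and POLA2 rose by 2.08 in bird 8439 (others 0.25 to 0.88).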

How the results depend on the processing

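The count of members called, 0 in each of the 6 comparisons with edgeR, was the same wherever it was recomputed under relative log expression scaling, without the filter on low counts, without the libraries labelled 8439, without libraries of 2 lanes, in first trials alone, without each paired bird in turn (0 to 0), and without the pairing of libraries by bird (0 with no replicate block). DESeq2 gave 1 for second trials against baseline (CDC20) and 0 elsewhere. Among the genes named for a comparison and the marker relations, some values changed sign. UHRF1 against baseline was 0.14 for foreign song and 0.10 for first trials with DESeq2, and 0.13 and 0.11 without bird 8450. PCNA for foreign song was 0.0174 without bird 8450. The r of MKI67 with thrombocyte markers was −0.22 without bird 8448 (0.01 with it). The r of MCM2 with them was −0.05 without birds 8422 and 8439 (0.20 with these birds). The cause was not tested. Over all 33 members, without the libraries labelled 8439, 6 log2 fold changes of foreign against local song changed sign (AURKA, CENPF, NDC80, ESPL1, PCNA and POLA2, the largest 0.21 in size with these libraries) and 7 of second against first trials did (BUB1B, PLK1, KIF11, KIF20A, TPX2, MCM3 and MCM5, the largest 0.10), with MCM3 at −0.28 without them; against baseline 1 to 4 did in each comparison. The correlations with MKI67 (6 members) and the marker relations (2) came, by Pearson's r, to 0 and 0 without bird 8448, and to 4 and 2 without the libraries labelled 8439. Leaving out single baseline libraries or the second library of bird 8422 and all relations of members with MKI67 were chosen after seeing the data. Many members had medians under 100 counts in a library, so small differences in them are not detectable at this depth. The search for promoter motifs that was planned was not run, because no promoter sequence was used here.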
